A study of Mus musculus with 8 samples.

Results

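The nonclassical MHC class I genes are the relatives of the classical class I genes that are less polymorphic, are often expressed at lower levels and present specialised ligands. The 10 described here are H2-Q4, H2-Q6, H2-Q7, H2-T22, H2-T23, H2-T24, H2-M2, H2-M3, Cd1d1 and Mr1. They were chosen by symbol, as the rows of the deposited count table whose Entrez Gene ID maps to these mouse names, out of 27179 gene IDs in all. All 10 passed the filter on low counts, as did 14238 genes of the table. RNA was sequenced from plasmacytoid dendritic cells (pDC), specialised in type I interferon output, and conventional dendritic cells (cDC), specialised in presenting antigen to T cells. Both were sorted from the spleens of C57BL/6 mice bearing a leukemia, which the series title calls AML. No driver of the leukemia is given in the sources used here, and neither the strain nor the leukemia differs between the groups. The mice had received panobinostat, an inhibitor of histone deacetylases, or vehicle over 2 days. The 4 groups are panobinostat-treated pDC, vehicle-treated pDC, panobinostat-treated cDC and vehicle-treated cDC, with 2 libraries each, and each library came from a pool of 3 to 6 mice.

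A class I molecule is a heavy chain that binds its ligand in a groove and, in nearly every family member, pairs with beta-2 microglobulin, the product of B2m. The classical heavy chains H2-K1 and H2-D1 show peptides to CD8 T cells. H2-T23 encodes Qa-1, which carries leader peptides of other class I chains to the CD94-NKG2A receptor of natural killer cells. H2-Q6 and H2-Q7 belong to the Qa-2 antigen family, whose H2-Q7 product is held in the membrane by a lipid anchor, and H2-Q4 encodes Qb-1. H2-M3 binds peptides that begin with formylmethionine, as bacterial and mitochondrial proteins do, and H2-T22 is a ligand of some gamma delta T cell receptors. Cd1d1 presents lipids to natural killer T cells and Mr1 presents vitamin B metabolites to mucosal-associated invariant T cells. In dendritic cells these molecules link innate-like lymphocytes to antigen presentation.

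Of the members, 8 lie on chromosome 17, within the H-2 complex. In RefSeq's annotation of GRCm38.p6, H2-Q4 (Entrez 15015) is at chr17:35379617-35384674, H2-Q6 (110557) at chr17:35424850-35430055 and H2-Q7 (15018) at chr17:35439140-35443773, all on the plus strand. H2-T24 (15042) at chr17:36003471-36020800, H2-T23 (15040) at chr17:36029977-36032701 and H2-T22 (15039) at chr17:36037128-36042742 follow on the minus strand. H2-M3 (14991) is at chr17:37270234-37274485 on the plus strand and H2-M2 (14990) at chr17:37480851-37483554 on the minus strand. Cd1d1 (12479) is at chr3:86995834-87012358 and Mr1 (15064) at chr1:155127874-155146814, both on the minus strand. Each value below is the read count of a whole gene.

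Promoters of class I genes are known to carry a kappa B element, an interferon-stimulated response element (ISRE), an X box as part of the SXY module that recruits NLRC5, and a CCAAT box. RefSeq's promoter table for GRCm38.p6 matched 8 of the 10 members by symbol, all but H2-T24 and Cd1d1. The 200 bases before the start site that this table gives are shown for 6 members, 5′ to 3′ on the strand of the gene. Whether the content of these elements bears on the level of a gene was not tested. Capitals mark exact matches, on either strand, to GGGGATTCCC (kappa B, with the letters it has in the promoter of H2-K1), TTTCACTT (ISRE core), TGATGAC (X box core) and CCAAT, and no 2 of the matches overlap. The table's start lies 15 bases inside the RefSeq gene span for H2-Q7 and 272 bases inside it for H2-K1, and at its edge for the others.
H2-Q7: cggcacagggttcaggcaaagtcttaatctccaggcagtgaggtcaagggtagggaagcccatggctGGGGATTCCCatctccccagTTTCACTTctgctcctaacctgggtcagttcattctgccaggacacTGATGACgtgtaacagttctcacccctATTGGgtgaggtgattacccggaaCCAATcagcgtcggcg
H2-Q4: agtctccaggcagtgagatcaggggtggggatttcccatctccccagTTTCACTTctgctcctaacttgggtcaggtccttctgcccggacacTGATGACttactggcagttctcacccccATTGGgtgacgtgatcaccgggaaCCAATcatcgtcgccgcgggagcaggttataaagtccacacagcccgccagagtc
H2-M3: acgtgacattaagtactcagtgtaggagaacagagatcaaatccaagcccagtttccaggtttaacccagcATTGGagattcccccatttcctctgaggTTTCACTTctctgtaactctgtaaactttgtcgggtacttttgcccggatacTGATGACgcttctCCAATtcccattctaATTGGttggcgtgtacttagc
H2-T22: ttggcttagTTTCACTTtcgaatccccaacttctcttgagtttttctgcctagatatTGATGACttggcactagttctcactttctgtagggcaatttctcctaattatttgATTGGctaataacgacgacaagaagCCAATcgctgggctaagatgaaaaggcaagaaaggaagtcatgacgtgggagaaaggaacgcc
H2-T23: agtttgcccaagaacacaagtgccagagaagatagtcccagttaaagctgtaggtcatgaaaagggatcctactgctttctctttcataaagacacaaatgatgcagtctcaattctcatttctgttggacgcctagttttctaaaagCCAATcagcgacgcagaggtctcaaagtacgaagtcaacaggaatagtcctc
H2-M2: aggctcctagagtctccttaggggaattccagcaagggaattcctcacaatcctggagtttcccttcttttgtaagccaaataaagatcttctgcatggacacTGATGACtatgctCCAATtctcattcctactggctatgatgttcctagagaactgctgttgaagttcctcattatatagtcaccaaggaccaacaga
All 4 motifs stood in the windows of H2-Q6 and H2-Q7, as in that of the classical gene H2-D1. Of the 32851 windows of this length in the table, 3 (0.00913%) held all 4. That share counts these same genes, and the kappa B letters come from a class I gene, so it is no independent background. GGGGATTCCC stood in 0.067% of these windows, TTTCACTT in 1.03%, TGATGAC in 2.19% and CCAAT in 29.3%. H2-Q4, H2-M3 and H2-T22 held the last 3 motifs and no exact kappa B match. H2-M2 held TGATGAC and CCAAT, H2-T23 held CCAAT alone, and Mr1 held none. A match describes these letters and is not evidence of binding, and no match says only that these letters are not in the window.

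**Figure D1:**
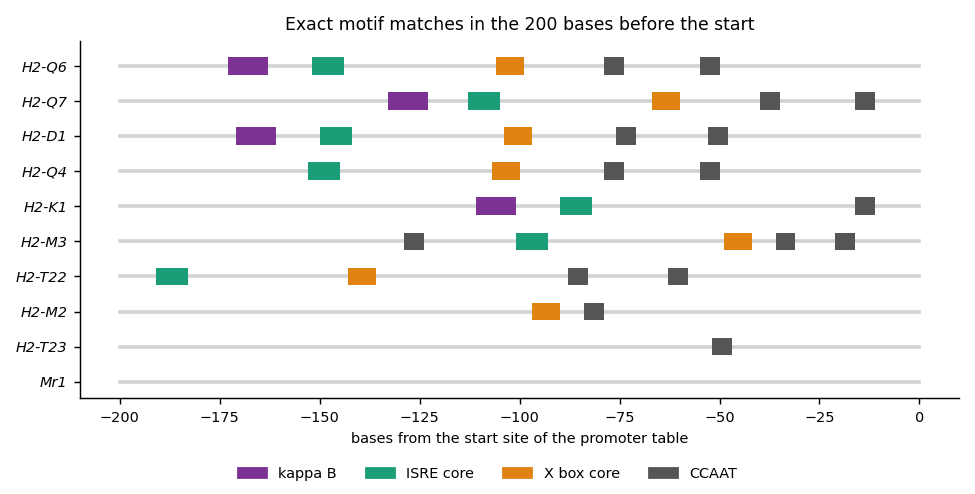
Position of each exact motif match in the 200 bases before the start site of RefSeq's promoter table, in bases from that start, for the 8 members with a promoter sequence and for H2-K1 and H2-D1. Coloured blocks are matches; H2-Q6, H2-Q7 and H2-D1 carry all 4 motifs, and Mr1 carries none.

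Total counts were 13124861 to 20657429 per library. Panobinostat pDC replicate 2 had the lowest total and stood apart, with 10745 genes detected, against 14927 in panobinostat pDC replicate 1 and 16109 to 19950 in the other libraries. The 10 pDC markers summed to 18100 to 26900 CPM, the depth-scaled count, in panobinostat pDC and 14200 to 17900 CPM in vehicle pDC, against 189 to 225 CPM in panobinostat cDC and 218 to 279 CPM in vehicle cDC, in accord with the labels. The 10 cDC markers summed to 2340 to 3750 CPM in panobinostat pDC and 2320 to 2780 CPM in vehicle pDC, against 2940 to 2980 CPM in panobinostat cDC and 2400 to 2460 CPM in vehicle cDC. Within that list, the cDC-defining gene Zbtb46 was 4.36 and 19.6 CPM in panobinostat pDC and 2.37 and 8.27 CPM in vehicle pDC, against 200 and 186 CPM in panobinostat cDC and 137 and 154 CPM in vehicle cDC. Of the 10 cDC markers, 5 were lower and 2 higher in pDC under panobinostat, and 4 were lower and 2 higher under vehicle. The higher ones were the lectin genes Cd209a, at 955 and 1880 CPM in panobinostat pDC and 754 and 1100 CPM in vehicle pDC, against 115 and 81.3 CPM in panobinostat cDC and 142 and 102 CPM in vehicle cDC, and Clec10a. Levels are CPM on library sizes scaled by the trimmed mean of M values. Each change is a log2 fold change with its standard error (SE). The adjusted p values were computed by edgeR's quasi-likelihood test over 14238 genes, adjusted after Benjamini and Hochberg, and 0.05 was the threshold. Values are means over, or pairs of, n = 2 libraries per group. Lists of other cell types also differed between the cell types. T cell markers, mostly the Cd4 and Cd8b1 co-receptor genes, summed to 482 to 722 CPM in panobinostat pDC and 1070 to 1660 CPM in vehicle pDC, against 135 to 157 CPM in panobinostat cDC and 113 to 122 CPM in vehicle cDC. The T cell receptor genes Cd3e, Cd3g and Trac were at most 4.07 CPM in every library. Cd3d was 0.496 and 8.73 CPM in panobinostat pDC and at most 2.93 CPM in the other groups. The list's median log2 fold change of pDC over cDC was 0.45 under panobinostat and -0.98 under vehicle. Progenitor markers summed to 29.3 to 74.5 CPM in panobinostat pDC and 66.4 to 72.9 CPM in vehicle pDC, against 403 to 409 CPM in panobinostat cDC and 267 to 361 CPM in vehicle cDC. Kit made up most of that sum in cDC, while Hoxa9 and Myb were higher in pDC on average under both treatments, and the list's median was 0.59 under panobinostat and 0.56 under vehicle. Erythroid markers summed to 1080 to 3390 CPM in panobinostat pDC and 569 to 1190 CPM in vehicle pDC, against 151 to 947 CPM in panobinostat cDC and 347 to 749 CPM in vehicle cDC. Monocyte and macrophage markers summed to 1170 to 2000 CPM in panobinostat pDC and 862 to 1250 CPM in vehicle pDC, against 536 to 801 CPM in panobinostat cDC and 666 to 799 CPM in vehicle cDC. Ly6c1 and Cd68 made up most of the monocyte and macrophage sum in pDC. Under each treatment these 2 lay above cDC and the other 6 of the 8 markers lay below. That list's median log2 fold change of pDC over cDC was -3.9 under panobinostat and -3.93 under vehicle. The part of these lists in the member values was not tested.

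Several members have near copies whose reads may have been counted for either gene. Of the 50-base windows of the longest coding transcript, 44.7% occurred in another gene for H2-T22 (37.9% in H2-T10), 34.9% for H2-Q7 (19.3% in H2-Q6), 32.0% for H2-Q6, 28.8% for H2-T23, 25.8% for Cd1d1 (all in Cd1d2) and 24.3% for H2-Q4. The share was 3.23% for H2-T24, 1.67% for H2-M2, 0.576% for H2-M3 and 0% for Mr1. Levels of the 6 genes with shares of 24.3% or more are therefore uncertain by reads shared with those copies, and those of H2-T24, H2-M2, H2-M3 and Mr1 less so.

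Levels between genes were compared per kilobase of exon, and the order depended on the length used. With the union of all exons H2-T23 had the highest level per kilobase of the members in every group, at 262 CPM per kb in panobinostat pDC, 225 in vehicle pDC, 148 in panobinostat cDC and 115 in vehicle cDC. Next in panobinostat pDC stood H2-M3 at 248 CPM per kb, H2-Q7 at 194, H2-Q6 at 192 and H2-T22 at 182. In vehicle pDC H2-M3 was 165 CPM per kb, H2-Q7 179, H2-Q6 198 and H2-T22 145. In vehicle cDC H2-M3 was 94.6 CPM per kb, H2-Q7 75.7, H2-Q6 109 and H2-T22 66.8. On the exon union these genes thus stood close together in every group named. Per kilobase of the longest coding transcript, a length tried after the levels were seen, H2-Q7 stood above H2-T23 in pDC, at 543 and 515 CPM per kb under panobinostat and 500 and 441 under vehicle, and H2-T23 stayed above H2-Q7 in cDC. The order of H2-T23 and H2-Q7 in pDC is therefore not settled by these data. By transcript length H2-T22 was 281 CPM per kb in vehicle pDC, H2-Q6 198 and H2-M3 165. The genes thus stood further apart there than on the exon union. On the exon union the classical genes stood above all members, H2-D1 at 1810 CPM per kb in panobinostat pDC and 1630 in vehicle pDC and H2-K1 at 1040 and 885. On the same scale, at the low end in panobinostat pDC, were H2-Q4 at 4.47 CPM per kb, Mr1 at 4.15 and H2-M2 at 0. H2-M2 held rank 3 in vehicle cDC, at 106 CPM per kb, or rank 5 by transcript length, and by either length rank 10 in vehicle pDC, at 0.222 CPM per kb. H2-T24 held rank 6 in both pDC groups and rank 9 in both cDC groups by either length.

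**Figure D2:**
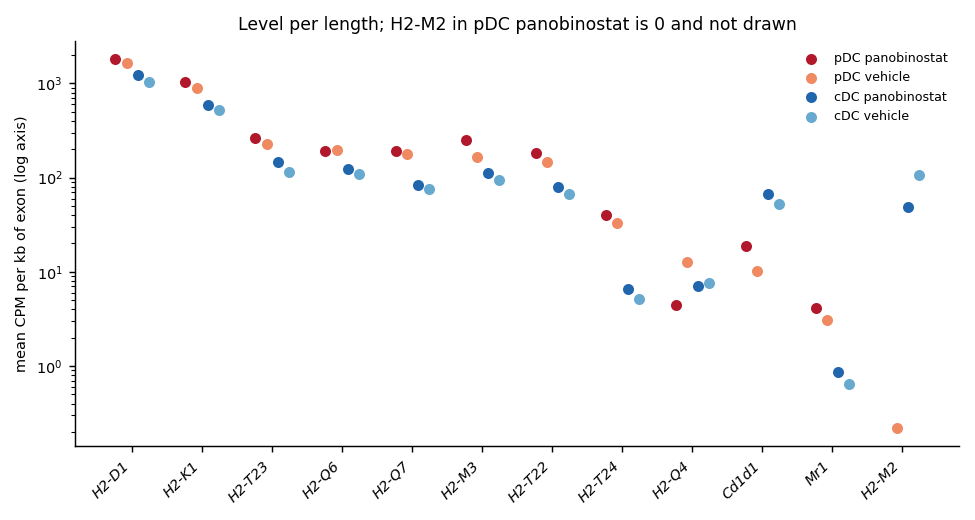
Mean level of the 10 members and of H2-K1 and H2-D1 in CPM per kilobase of exon, on a log axis, for the 4 groups (n = 2 libraries each), ordered by vehicle pDC. On this length H2-T23 is the highest member in each group and H2-M2 holds rank 3 in vehicle cDC; with transcript length H2-Q7 is above H2-T23 in pDC and H2-M2 holds rank 5. H2-M2 is the lowest in both pDC groups.

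The comparison of pDC with cDC asked which of these genes mark either cell type. Under panobinostat 7 of 10 members passed the test, 5 higher in pDC (H2-M3, H2-Q7, H2-T22, H2-T24 and Mr1) and 2 lower (H2-M2 and Cd1d1), where 18% of all genes tested passed, 7.76% higher and 10.2% lower. Under vehicle 5 members passed, 3 higher in pDC (H2-Q7, H2-T24 and Mr1) and the same 2 lower, where 9.73% of all genes passed, 5.01% higher and 4.71% lower. Among the members counted here, H2-M2 had passed the filter on low counts only through cDC. The median log2 fold change of the members was 0.98 under panobinostat and 0.92 under vehicle, against -0.18 and 0.02 for all genes. In bulk samples, fewer cells of a type and less RNA per cell cannot be told apart.

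**Figure D3:**
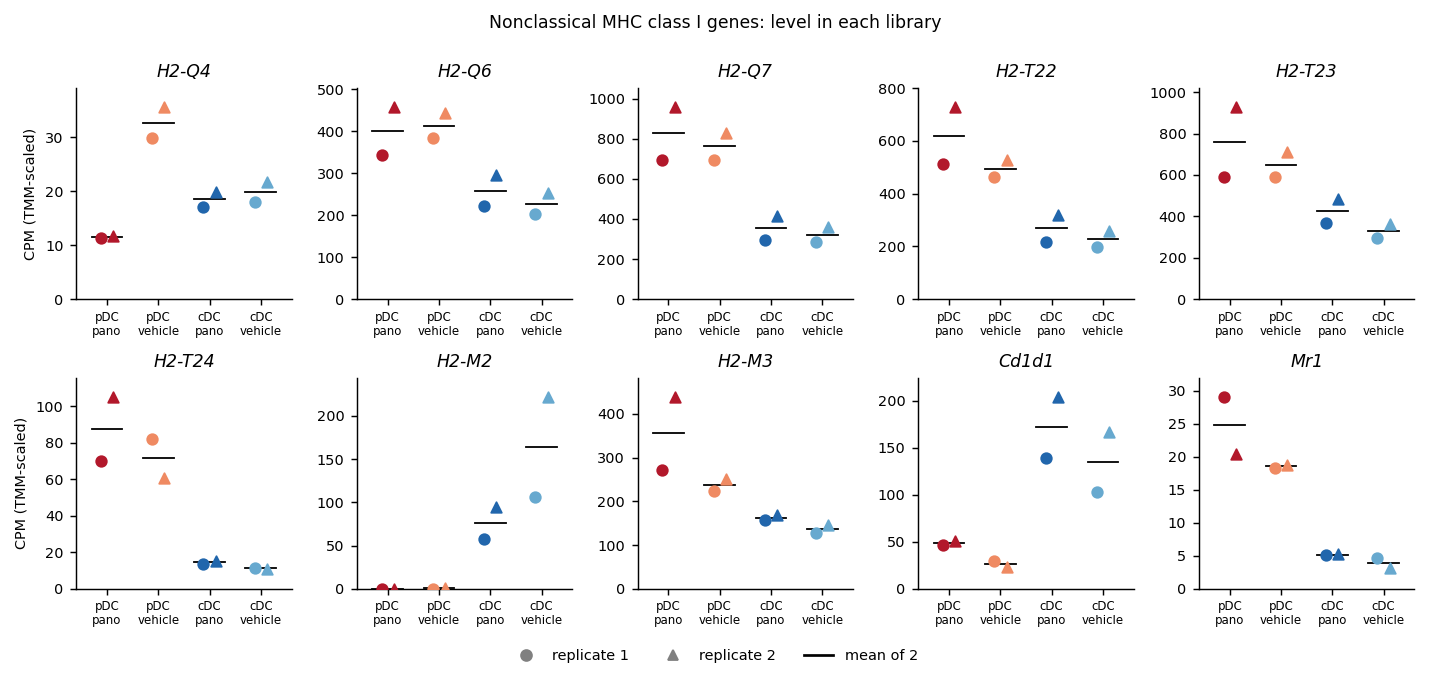
CPM of each member in each library, on linear axes that start at 0; circles are replicate 1, triangles replicate 2 and lines the mean of 2. The pDC libraries lie above the cDC libraries for H2-T24 and Mr1 and below them for H2-M2 and Cd1d1, and for H2-Q4 panobinostat pDC lies below the other groups.

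H2-M2 showed the widest gap between the cell types. Its counts were 0 and 0 in panobinostat pDC and 4 and 9 in vehicle pDC, against 1184 and 1749 in panobinostat cDC and 2285 and 4806 in vehicle cDC. Its level was 0 CPM in both panobinostat pDC libraries and 0.202 and 0.487 CPM in vehicle pDC, against 57.1 and 95.0 CPM in panobinostat cDC and 106 and 222 CPM in vehicle cDC. The gene was thus close to undetected in all 4 pDC libraries and abundant in all 4 cDC libraries, with no overlap. With 3 counts over the group as a floor, which covers counting error only, it was at least 773-fold lower in panobinostat pDC than in panobinostat cDC (adjusted p = 0.00284). Under vehicle the log2 fold change was -8.88 ± 0.76 (adjusted p = 0.00383). H2-M2 passed the filter on low counts only through cDC, so these p values add no support beyond the counts.

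Cd1d1, the lipid-presenting gene, was also lower in pDC. It was 46.7 and 51.1 CPM in panobinostat pDC and 29.1 and 22.9 CPM in vehicle pDC, against 139 and 204 CPM in panobinostat cDC and 103 and 167 CPM in vehicle cDC. All 4 pDC libraries lay below all 4 cDC libraries. The log2 fold change of pDC over cDC was -1.81 ± 0.32 under panobinostat (adjusted p = 0.0168) and -2.38 ± 0.33 under vehicle (adjusted p = 0.00976). Cd1d2, its near copy, was 9.77 and 11.8 CPM in panobinostat pDC and 5.4 and 3.73 CPM in vehicle pDC, against 29.6 and 41.8 CPM in panobinostat cDC and 21.7 and 35.9 CPM in vehicle cDC. Cd1d2 passed as lower in pDC under vehicle (-2.66 ± 0.49, adjusted p = 0.0239). Because the 2 genes share transcript sequence, these are not independent measurements.

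Mr1, the presenter of vitamin B metabolites, went the other way. It was 29.1 and 20.5 CPM in panobinostat pDC and 18.3 and 18.8 CPM in vehicle pDC, against 5.06 and 5.32 CPM in panobinostat cDC and 4.66 and 3.14 CPM in vehicle cDC. Every pDC library lay above every cDC library. The log2 fold change of pDC over cDC was 2.26 ± 0.49 under panobinostat (adjusted p = 0.0292) and 2.25 ± 0.49 under vehicle (adjusted p = 0.0397). The call held in 8 of 16 alternatives under panobinostat and 7 of 16 under vehicle, where it was also lost with library size scaling only (adjusted p = 0.0528 by edgeR), with no filter on low counts (adjusted p = 0.083 by edgeR) and with the replicate number as a block (adjusted p = 0.0595 by edgeR). Mr1 shared no 50-base window with another gene.

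H2-T24, a gene of the T region with no role given here, had the largest gap in favour of pDC. It was 70.0 and 105 CPM in panobinostat pDC and 81.8 and 60.8 CPM in vehicle pDC, against 13.6 and 15.2 CPM in panobinostat cDC and 11.6 and 10.6 CPM in vehicle cDC. The pDC libraries all lay above the cDC libraries. The log2 fold change was 2.61 ± 0.32 under panobinostat (adjusted p = 0.00571) and 2.68 ± 0.33 under vehicle (adjusted p = 0.00619). Its neighbour H2-T22, the gamma delta T cell ligand, was 512 and 728 CPM in panobinostat pDC and 463 and 528 CPM in vehicle pDC, against 218 and 321 CPM in panobinostat cDC and 196 and 259 CPM in vehicle cDC. H2-T22 passed under panobinostat (1.20 ± 0.29, adjusted p = 0.0376) and not under vehicle (1.12 ± 0.29, adjusted p = 0.063), with nearly the same fold change. H2-T10, with which H2-T22 shares the most sequence, was 85.2 and 141 CPM in panobinostat pDC and 75.0 and 75.6 CPM in vehicle pDC, against 23.3 and 36.7 CPM in panobinostat cDC and 23.2 and 32.9 CPM in vehicle cDC. It passed as higher in pDC under panobinostat (1.92 ± 0.37, adjusted p = 0.0218).

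H2-T23, which encodes Qa-1, was 589 and 927 CPM in panobinostat pDC and 588 and 710 CPM in vehicle pDC, against 368 and 486 CPM in panobinostat cDC and 297 and 365 CPM in vehicle cDC. The groups did not overlap, but the difference did not pass the test under panobinostat (0.83, adjusted p = 0.0948) or vehicle (0.97 ± 0.29, adjusted p = 0.0915). H2-M3, the presenter of formylated peptides, was 272 and 439 CPM in panobinostat pDC and 224 and 250 CPM in vehicle pDC, against 158 and 168 CPM in panobinostat cDC and 127 and 146 CPM in vehicle cDC. It passed under panobinostat (1.13 ± 0.25, adjusted p = 0.0317), not under vehicle (0.80 ± 0.25, adjusted p = 0.109).

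The Qa-2 family gene H2-Q7 was 696 and 958 CPM in panobinostat pDC and 697 and 828 CPM in vehicle pDC, against 297 and 415 CPM in panobinostat cDC and 286 and 359 CPM in vehicle cDC. Its level in pDC was above that in cDC in every library, and it passed under panobinostat (1.21 ± 0.27, adjusted p = 0.0302) and vehicle (1.24 ± 0.27, adjusted p = 0.0391). H2-Q6 was 344 and 457 CPM in panobinostat pDC and 383 and 443 CPM in vehicle pDC, against 221 and 295 CPM in panobinostat cDC and 202 and 252 CPM in vehicle cDC. Its log2 fold changes of 0.63 (adjusted p = 0.122) and 0.86 ± 0.24 (adjusted p = 0.0799) did not pass. H2-Q4, which encodes Qb-1, was 11.4 and 11.7 CPM in panobinostat pDC and 29.8 and 35.6 CPM in vehicle pDC, against 17.1 and 19.9 CPM in panobinostat cDC and 18.0 and 21.7 CPM in vehicle cDC. Its order turned with the treatment: panobinostat pDC was below panobinostat cDC (-0.68 ± 0.36, adjusted p = 0.239) and vehicle pDC above vehicle cDC (0.72 ± 0.36, adjusted p = 0.3), and neither passed.

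Counting libraries that do not overlap, pDC lay above cDC for 7 members and below for 3 under panobinostat, where 62.7% of all genes were separated, 24.7% above and 38% below. Under vehicle 8 members lay above and 2 below, where 70.6% of all genes were separated, 35.1% above and 35.5% below. The counts of members in this paragraph include H2-M2, which passed the filter on low counts only through cDC and so adds no support to them. The cell-type calls depended on which libraries entered: in the 4 panobinostat libraries alone 0 members passed, where 1.21% of all genes did, and in the 4 vehicle libraries alone 9, where 32.8% did. With the replicate number as a block 9 members passed under panobinostat, H2-Q6 and H2-T23 added, where 16.2% of all genes did. Under vehicle 7 passed with the block, where 8.72% of all genes did, and 8 with library size scaling only, where 10.1% did. All 10 passed under vehicle without panobinostat pDC replicate 1, where 37.2% of all genes did, and without replicate 2, where 36.1% did. The calls of H2-M3, H2-Q7, H2-T22 and Mr1 under panobinostat and of H2-Q7 and Mr1 under vehicle were lost on leaving out any 1 of the 6 libraries other than panobinostat pDC. Those of H2-T24 and Cd1d1 under panobinostat were lost without either panobinostat cDC library. Under vehicle H2-T24 was lost without either vehicle cDC library or vehicle pDC replicate 1, and Cd1d1 without vehicle cDC replicate 2 or either vehicle pDC library. H2-T22 under panobinostat was also lost without panobinostat pDC replicate 2 (adjusted p = 0.0586 by edgeR). The fold changes of these members kept their sign in every alternative run.

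**Figure D4:**
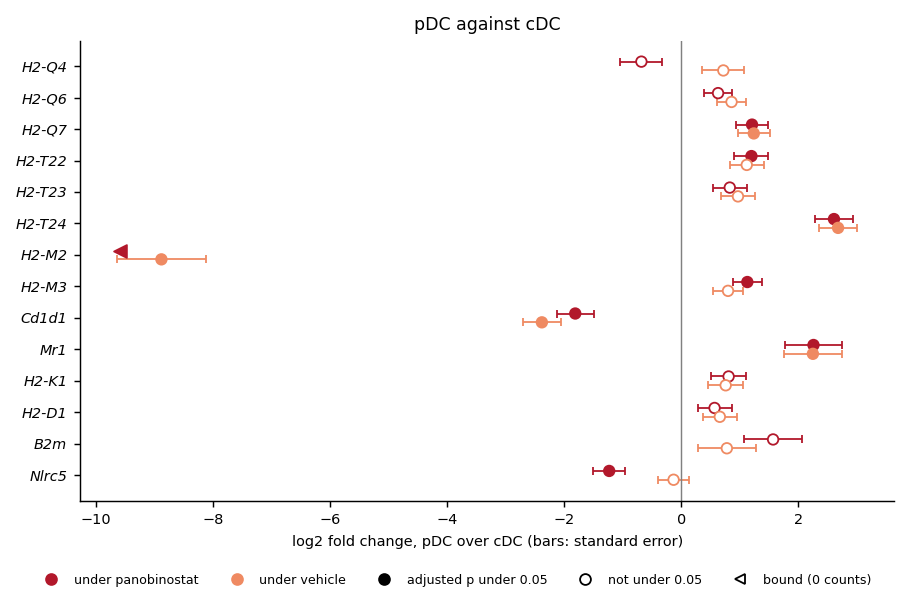
Log2 fold change of pDC over cDC with SE for the 10 members, H2-K1, H2-D1, B2m and Nlrc5, under panobinostat (dark) and vehicle (light); filled points passed the adjusted threshold. H2-M2 and Cd1d1 lie below 0 and H2-T24 and Mr1 above 0 in both; the H2-M2 triangle under panobinostat is the bound from 0 counts in pDC, with no SE.

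The drug comparison asked whether panobinostat changed these genes in each cell type. H2-M2 passed the filter on low counts only through cDC, and its pDC counts of 0 and 13 over the groups are too low for a usable test in pDC. None of the other members passed edgeR's test in pDC, where 13 of 14238 genes (0.0913%) did, and 14.9% of all genes had an unadjusted p under 0.05. The panobinostat pair lay wholly above the vehicle pair for H2-M3, Cd1d1 and Mr1 and wholly below it for H2-Q4, where 15.7% of all genes lay above and 26.5% below. The median log2 fold change of the 10 members was 0.26, against -0.14 for all genes, and it is the same with H2-M2 at its bound, where H2-M2 is still the lowest.

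H2-Q4 had the smallest p of the members. It was 11.4 and 11.7 CPM in panobinostat pDC, against 29.8 and 35.6 CPM in vehicle pDC. The 2 panobinostat libraries were close to each other and far below the vehicle libraries, and in counts they were 230 and 126, against 591 and 659. The log2 fold change was -1.50 ± 0.37 (adjusted p = 0.189 by edgeR, range over 16 alternatives 4.91e-06 to 0.973). It passed in 3 of these alternatives, with DESeq2, which called 6.36% of all genes, without panobinostat pDC replicate 1 (adjusted p = 0.00428 by edgeR), where 55.3% of all genes passed, and without replicate 2 (adjusted p = 0.032 by edgeR), where 4.78% did. H2-M3 also passed without panobinostat pDC replicate 1 (adjusted p = 0.00772 by edgeR). Panobinostat cDC, at 17.1 and 19.9 CPM, overlapped vehicle cDC, at 18.0 and 21.7 CPM (log2 fold change -0.10). The difference between the effects, pDC minus cDC, was -1.40 ± 0.52 (adjusted p = 0.579), which did not pass. That difference passed with DESeq2 (adjusted p = 0.0217), which called 2.04% of all genes, and without panobinostat pDC replicate 1 (adjusted p = 0.0152 by edgeR), where 43.4% of all genes passed.

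Cd1d1 was 46.7 and 51.1 CPM in panobinostat pDC, against 29.1 and 22.9 CPM in vehicle pDC, with a log2 fold change of 0.91 ± 0.32 (adjusted p = 0.278). Its near copy Cd1d2 had a log2 fold change of 1.24 ± 0.47 (adjusted p = 0.301). H2-M3 was 272 and 439 CPM in panobinostat pDC, against 224 and 250 CPM in vehicle pDC (0.59 ± 0.25, adjusted p = 0.346). Panobinostat replicate 2 lay far above the other 3 pDC libraries for H2-M3, and replicate 1 lay close to the vehicle libraries. H2-M2 had 0 counts in panobinostat pDC, against 13 in vehicle pDC, at least 3.5-fold lower by the floor of 3 counts, which covers counting error only. Mr1 was 29.1 and 20.5 CPM in panobinostat pDC, against 18.3 and 18.8 CPM in vehicle pDC (0.42 ± 0.47, adjusted p = 0.695).

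The other 5 members had estimates near 0 in pDC. Log2 fold changes were -0.05 for H2-Q6, 0.12 for H2-Q7, 0.32 for H2-T22, 0.22 for H2-T23 and 0.30 for H2-T24. The differences in mean CPM were smaller than the spread of the panobinostat pDC pair, whose replicate 2 was the higher library for all 5. Without panobinostat pDC replicate 2 the values for H2-Q7, H2-T22, H2-T23 and H2-T24 were -0.19, -0.01, -0.19 and -0.08, so their sign rested on that library.

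In cDC 0 of 10 members passed, and 0 of all 14238 genes (0%) passed edgeR's test, where 206 (1.45%) had an unadjusted p under 0.05; DESeq2 called 15 genes and limma-voom 0. H2-M2 had the largest estimate, at 57.1 and 95.0 CPM in panobinostat cDC against 106 and 222 CPM in vehicle cDC, a log2 fold change of -1.11 ± 0.53 (adjusted p = 1 by edgeR). Its panobinostat libraries lay below its vehicle libraries, but the 2 vehicle libraries differed from each other by more than the group means did. The other members had log2 fold changes of -0.10 (H2-Q4) to 0.41 (Mr1). The libraries of H2-M3, H2-T23, H2-T24 and Mr1 lay above those of vehicle, where 22.2% of all genes lay above and 18.8% below. The median log2 fold change of the members was 0.25, against 0.00281 for all genes. Leaving H2-M2 aside for its low pDC counts, no member passed the test of the difference between the effects in pDC and cDC, where 0.00702% of all genes did. The estimates were 0.57 ± 0.44 for Cd1d1 and 0.33 ± 0.35 for H2-M3.

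**Figure D5:**
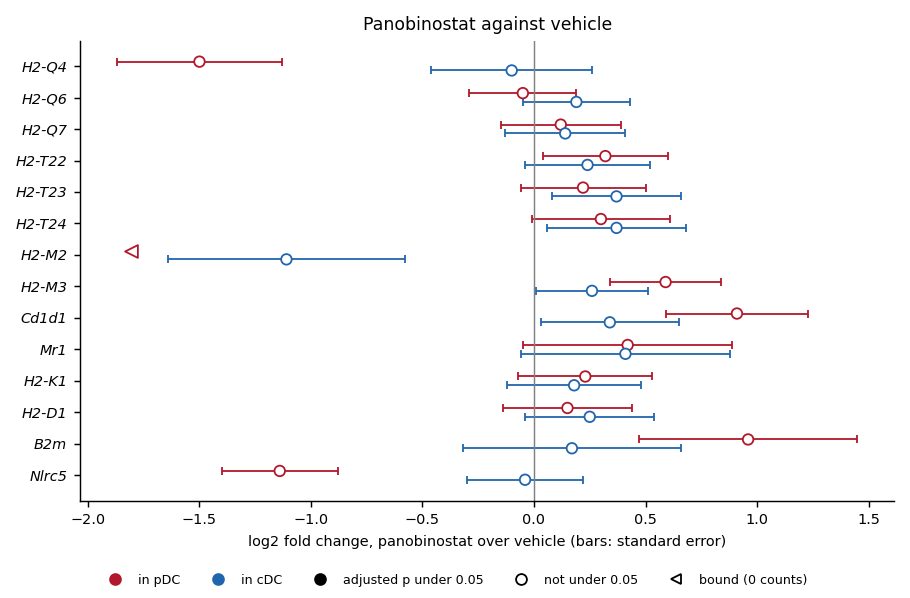
Log2 fold change of panobinostat over vehicle with SE in pDC (red) and cDC (blue) for the 10 members, H2-K1, H2-D1, B2m and Nlrc5; no point is filled, so none passed the adjusted threshold. H2-Q4 and Nlrc5 lie below 0 in pDC and near 0 in cDC; the H2-M2 triangle in pDC is a bound from 0 counts, not a fitted value.

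The sum of NK cell markers was higher with the drug in pDC: the 8 markers summed to 592 to 1320 CPM in panobinostat pDC, against 179 to 274 CPM in vehicle pDC. Nearly all of it was Klrd1, at 407 and 832 CPM in panobinostat pDC against 156 and 230 CPM in vehicle pDC, and Klrk1, at 178 and 487 CPM in panobinostat pDC against 23 and 42.8 CPM in vehicle pDC. The other 6 markers, Ncr1, Klrb1c, Gzma, Prf1, Eomes and Nkg7, were all at 0 in panobinostat pDC replicate 2, and Eomes was at 0 in replicate 1 too. In cDC they summed to 211 to 442 CPM with panobinostat and 146 to 191 CPM with vehicle, and the same 6 markers were 2.12 to 58.6 CPM in panobinostat cDC replicate 2. The T cell sum was lower in panobinostat pDC than in vehicle pDC, as given above. Of the 7 T cell markers tested, 3 had estimates above 0 with the drug in pDC. Among these, Lck was 10.3 and 46.3 CPM in panobinostat pDC, against 3.63 and 3.73 CPM in vehicle pDC. The T cell genes Cd3e and Bcl11b were at 0 in both panobinostat pDC libraries, and Bcl11b had only 2 counts in vehicle pDC. The part of these markers in the member values was not tested.

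The genes that serve class I molecules were read beside the members. Among the 14 loading genes, which cover peptide transport and folding, 0 passed for the drug in either cell type. The same held for the 9 regulators, the 8 genes of CD1d lipid loading and the 13 other class I-like genes tested. In cDC all 14 loading genes had estimates above 0, as did 7176 of all 14238 genes. Their median log2 fold change was 0.36, against 0.00281 for all genes. In pDC 7 of 14 did, as did 6261 of all 14238 genes, with a median of 0.16, against -0.14 for all genes. In pDC against cDC under panobinostat 4 of the 14 passed as lower, where 10.2% of all genes did. Among them were the peptide transporter subunits Tap1 (-1.74 ± 0.22, adjusted p = 0.006) and Tap2 (-1.03, adjusted p = 0.0256). The others were the chaperone Calr (-0.83, adjusted p = 0.0485) and the trimming peptidase Erap1 (-0.75), which lies outside the naming rule and was named after its value was seen. Under vehicle 1 of the 14 passed, where 9.73% of all genes did, the tapasin gene Tapbp (1.12 ± 0.21, adjusted p = 0.0252), higher in pDC. Tap1 was 270 and 216 CPM in panobinostat pDC and 336 and 323 CPM in vehicle pDC, against 726 and 894 CPM in panobinostat cDC and 547 and 690 CPM in vehicle cDC. Thus Tap1 was lower in pDC in every library, the reverse of H2-Q7, H2-T24 and Mr1.

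Nlrc5, the class I transactivator, was 44.6 and 42.5 CPM in panobinostat pDC, against 103 and 88.2 CPM in vehicle pDC (-1.14 ± 0.26, adjusted p = 0.169). It passed in 2 of 16 alternatives, 1 of them DESeq2 (adjusted p = 0.0144), which called 6.36% of all genes. The other left out panobinostat pDC replicate 1, which leaves 1 library in that group, at an estimate of -1.18. Nlrc5 was 83.3 and 122 CPM in panobinostat cDC, against 89.9 and 120 CPM in vehicle cDC. Of the 9 regulators, Nlrc5 was the 1 that passed a cell-type comparison, lower in pDC under panobinostat (-1.23 ± 0.27, adjusted p = 0.0282). That call held in 9 of 16 alternatives, with adjusted p from 0.00037 to 0.176, and was lost in the 4 panobinostat libraries alone (adjusted p = 0.126 by edgeR) and on leaving out any 1 of the 6 libraries other than panobinostat pDC. B2m, the shared light chain, was 6190 and 13600 CPM in panobinostat pDC, against 3720 and 6470 CPM in vehicle pDC (0.96 ± 0.49, adjusted p = 0.407). With 1 library left out the B2m estimate ran from 0.22 to 1.41, the highest without panobinostat pDC replicate 1. The classical genes did not pass edgeR's test in any comparison of the fit without a block. Their log2 fold changes of pDC over cDC under panobinostat were 0.81 (H2-K1, adjusted p = 0.111) and 0.57 (H2-D1, adjusted p = 0.218). Under vehicle they were 0.76 (H2-K1, adjusted p = 0.183) and 0.66 (H2-D1, adjusted p = 0.232). B2m was at 1.57 ± 0.50 under panobinostat (adjusted p = 0.0789) and 0.78 ± 0.49 under vehicle (adjusted p = 0.422). For each of these genes pDC lay wholly above cDC under both treatments. Of all genes, 24.7% did under panobinostat and 35.1% under vehicle. With the block H2-K1 passed as higher in pDC under panobinostat (adjusted p = 0.0243 by edgeR) and vehicle (adjusted p = 0.0381 by edgeR), and B2m under panobinostat (adjusted p = 0.0214 by edgeR). The block called 16.2% of all genes under panobinostat and 8.72% under vehicle. With DESeq2, which called 4495 of 14238 genes under panobinostat, B2m passed there (adjusted p = 0.0189) and H2-K1 and H2-D1 did not. Without panobinostat pDC replicate 1, which leaves 1 library in that group, the estimates under panobinostat were 0.98 for H2-K1, 0.77 for H2-D1 and 2.02 for B2m.

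Of the 13 other class I-like genes tested, 1 was higher in pDC under panobinostat, H2-T10, and 2 were lower, H2-M5 and Raet1d. Of all genes, 7.76% were higher there and 10.2% lower. H2-M5 and Raet1d had 0 counts in panobinostat pDC and were at least 17.9-fold and at least 5.53-fold lower. H2-M5 and Raet1d passed the filter on low counts only through cDC, at 23 to 35 and 9 to 12 counts per library. Their calls are therefore not separate support for a lower level in pDC. Under vehicle 0 of the 13 were higher and 2 were lower, Cd1d2 and the iron-regulating gene Hfe (-4.32 ± 0.86, adjusted p = 0.0304). Of all genes, 5.01% were higher there and 4.71% lower. Among 8 genes of CD1d lipid loading, the lysosomal protease Ctsl was higher in pDC under panobinostat (8.68 ± 0.39, adjusted p = 0.000548) and under vehicle (7.71 ± 0.37, adjusted p = 0.000659). Npc1, which exports cholesterol from lysosomes, was higher in pDC under panobinostat (1.55 ± 0.30, adjusted p = 0.022) and vehicle (2.52 ± 0.31, adjusted p = 0.00685). Of the lipid-binding genes, Gm2a was lower in pDC under panobinostat (-1.86 ± 0.37, adjusted p = 0.023), and Npc2, named after its value was seen, was higher (1.67). Ctsl therefore ran against Cd1d1, which was lower in pDC.

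By the root mean square difference of centred log2 CPM over the 8 libraries, among 8179 genes, the genes most like H2-T23 were Erg28 (0.07), Ssr2 (0.08) and AI662270 (0.09). Those most like H2-M3 were Ufc1 (0.08), Stambp (0.08) and Lmo2 (0.09). Nabp1 (0.12), Cd1d2 (0.14) and Evi2b (0.20) were most like Cd1d1, and Ctso (0.20), Spin1 (0.21) and Ssbp2 (0.24) most like Mr1. The 8 libraries share cell type and depth differences, and no p is attached to these values.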

How the data were processed

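The authors deposited whole-number read counts per Entrez gene ID, 1 column per library, which is the unit of everything here. The tools named in the submitters' processing notes are HISAT2 (2.1.0), with mm10 as the build, featureCounts of Subread (2.0.0), cutadapt (2.1), bcl2fastq (2.17.1.14), FastQC (0.11.6) and limma. The sources used here do not give strandedness, annotation or the treatment of multi-mapped reads, so levels of near copies are uncertain. Per the labels' protocols the libraries used the NEBNext Single Cell/Low Input kit. Those protocols mention sorted leukemia cells; the cells were taken as the pDC and cDC of the titles. Columns marked D5W were taken as vehicle and those marked LBH as panobinostat. Of 27179 gene IDs, 25275 matched a symbol.

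In R (4.3.3), edgeR (4.0.16) kept genes by filterByExpr (minimum count 10, minimum total 15), scaled by TMM and fitted all 8 libraries with 4 groups, leaving 4 residual degrees of freedom. The quasi-likelihood F test was Benjamini-Hochberg adjusted over 14238 genes in 5 comparisons, and SE is the log2 fold change over the root of F. Alternatives were RLE and library-size scaling, no or stricter filtering, DESeq2 (1.42.0), limma-voom (3.58.1), a replicate block, leaving out each library, and only the 4 libraries compared. Same-numbered replicates deviated together (6 correlations, 0.15 to 0.49), which by this check counts as pairing, though no label ties a number to particular animals; the reported fit has no block, and the block is an alternative. The members and lists were chosen with earlier results of these data known. All 10 members, B2m, H2-K1, H2-D1 and Nlrc5 were named, with up to 3 genes of smallest p per list and comparison and the 3 genes most alike to each of 4 members. Levels per kilobase used GENCODE exon unions; the longest coding transcript was an alternative chosen after seeing the data. The p values and the SE rest on the spread between libraries, and floors cover counting error only. The pipeline was also run on simulated counts with the same spread for every gene and library, so that run does not vouch for the calls in these data.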

Additional observations from a re-analysis of the deposited data

How the results depend on the processing

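The 8 libraries, 2 per group, limit these results, and reads without molecular identifiers are not independent molecules. The count of members that passed moved as follows. The counts for pDC against cDC, here and with the block, include H2-M2, which passed the filter on low counts only through cDC and so adds no support to them. For panobinostat in pDC it was 0, and 1 with DESeq2; leaving out 1 library gave 0 to 2. For the difference between the effects it was 0, and 1 with DESeq2; leaving out 1 library gave 0 to 1. For cDC it was 0 in all 16 alternatives. For pDC against cDC under panobinostat it was 7, 0 in the 4 panobinostat libraries alone, and 1 to 9 with 1 library left out, where 346 to 9796 of all genes passed, against 2557. Under vehicle it was 5, 8 with library size scaling only (1443 of all genes, against 1385), 9 in the 4 vehicle libraries alone, and 1 to 10 with 1 library left out, where 288 to 5531 of all genes passed. Without panobinostat pDC replicate 1 it was 10, with 5531 of 14868 genes, and without replicate 2 it was 10, with 5439 of 15049. The cause was not tested.

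With the replicate block, which pairs the libraries by number, 9 members passed under panobinostat and 7 under vehicle, against 16.2% and 8.72% of all genes, and 0 in the drug comparisons. It added H2-Q6 (adjusted p = 0.0322) and H2-T23 (adjusted p = 0.028) under panobinostat. Under vehicle it added H2-Q6, H2-T22 and H2-T23 and lost Mr1 (adjusted p = 0.0595).

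Signs turned for H2-Q7 and H2-D1 in pDC under library size scaling only, to -0.08 and -0.05. With 1 library left out, the drug estimates in pDC ran from -0.32 to 0.14 for H2-Q6, -0.19 to 0.32 for H2-Q7, -0.01 to 0.55 for H2-T22, -0.19 to 0.51 for H2-T23, -0.08 to 0.55 for H2-T24, -0.02 to 0.40 for H2-K1 and -0.14 to 0.35 for H2-D1. In cDC they ran from -0.22 to 0.04 for H2-Q4, -0.03 to 0.38 for H2-Q6, -0.11 to 0.37 for H2-Q7, -0.06 to 0.50 for H2-T22, -0.17 to 0.46 for B2m, -0.08 to 0.41 for H2-K1 and -0.33 to 0.22 for Nlrc5. The difference for H2-M3 ran from -0.10 to 0.62, and Nlrc5 in pDC against cDC under vehicle from -0.32 to 0.09.

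Over all genes, the 13 calls of the drug in pDC ran from 0 to 8227 with 1 library left out, and were 2 with RLE scaling, 68 with no filter, 906 with DESeq2, 0 with limma-voom and 0 with the replicate block. By transcript length in place of exon union, the rank of H2-T23 per kilobase moved to 2 in both pDC groups and that of H2-M2 to 5 in vehicle cDC.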

Other observations

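As a percentage of the H2-K1 plus H2-D1 counts of the same library, computed after the levels were seen and with no test, H2-T23 was 8.89 and 10.5 in panobinostat pDC, 9.48 and 9.57 in vehicle pDC, 8.89 and 8.59 in panobinostat cDC, then 8.05 and 7.75 in vehicle cDC. H2-Q6 was 5.18 and 5.17 in panobinostat pDC, against 6.18 and 5.98 in vehicle pDC. In cDC it was 5.35 and 5.21 with panobinostat, against 5.48 and 5.35 with vehicle. H2-Q7 was 10.5 and 10.8 in panobinostat pDC and 11.2 and 11.2 with vehicle, against 7.19 and 7.34 in panobinostat cDC and 7.77 and 7.63 in vehicle cDC. On this scale the replicates of H2-Q7 lie closer together than in CPM, and the 2 cell types do not overlap.

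H2-Q4 as a percentage of H2-Q7 was 1.64 and 1.22 in panobinostat pDC, against 4.28 and 4.3 in vehicle pDC. In cDC it was 5.76 and 4.79 with panobinostat, against 6.3 and 6.03 with vehicle. Cd1d2 as a percentage of Cd1d1 was 20.9 and 23.1 in panobinostat pDC, against 18.6 and 16.3 in vehicle pDC. It was 21.4 and 20.5 in panobinostat cDC, against 21.1 and 21.5 in vehicle cDC. H2-T10 as a percentage of H2-T22 was 16.7 and 19.4 in panobinostat pDC and 16.2 and 14.3 with vehicle, against 10.7 and 11.4 in panobinostat cDC and 11.8 and 12.7 in vehicle cDC.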
